A study of Arabidopsis thaliana with 6 samples.

Results

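The genes described here are 8 Arabidopsis thaliana loci of glucosinolate breakdown and of endoplasmic reticulum (ER) bodies, out of 27416 loci in the deposited tables. They are the myrosinase genes TGG1 (AT5G26000) and TGG2 (AT5G25980), the beta-glucosidase gene BGLU18 (AT1G52400) and the ER-body gene NAI2 (AT3G15950). The others are the modifier gene ESM1 (AT3G14210), the myrosinase-associated protein gene MVP1 (AT1G54030), and the specifier protein genes ESP (AT1G54040) and NSP1 (AT3G16400). All 8 were chosen by name, with the measured differences between the genotypes in view. Their fold changes are therefore given as a description and no p-value is attached to them. Estimated read counts were summed over the transcript models of each locus, which are 16 of the 35386 models in the tables.

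The study compared plants labelled ucp1 ucp3 double mutant with wild-type plants, to ask how the transcriptome differs when these genes of the mitochondrial uncoupling protein family are mutated. Both groups were of the Columbia ecotype, were 21 days old and were grown without a stress treatment in MS medium, a standard plant culture medium. Polyadenylated RNA of vegetative tissue was sequenced in 3 libraries per genotype, called biological replicates in the labels. The alleles, and the way in which the replicates were separated, are not given in the sources used here, so p-values measure only the spread between these samples.

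Glucosinolates are sulphur-rich glucosides of the cabbage order that are stored apart from myrosinases, the thioglucosidases that cleave them when tissue is wounded. The unstable aglycone rearranges to an isothiocyanate unless a specifier protein diverts it to a nitrile or an epithionitrile. In Arabidopsis leaves TGG1 and TGG2 accumulate in guard cells and in myrosin cells along the phloem, whereas ER bodies, spindle-shaped compartments derived from the endoplasmic reticulum, store other beta-glucosidases, BGLU18 being the main one in ER bodies of leaves.

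The libraries held between 1183612 and 11296137 estimated counts. The smallest total belonged to ucp1 ucp3 replicate 3, which also stood apart in a principal component analysis of log2 CPM, with a first coordinate of -50.5, where the other 5 libraries had -12.7 to 28.2, and values without it are given below. The detection floor, set at 3 reads and covering counting error only, ranged between 0.266 CPM and 2.53 CPM with library depth. Transcripts of UCP1 and UCP3 were found in all libraries and did not pass the test. Their log2 fold changes were -0.35 ± 0.14 and -0.49 ± 0.20 (SE), with adjusted p-values of 0.226 and 0.224 by edgeR. Both had separate CPM ranges, lower in libraries labelled ucp1 ucp3, as 12.4% of all tested loci did. UCP1 had at most 67.2 CPM there against at least 67.3 CPM in wild-type, and UCP3 at most 10.8 CPM against at least 12.3 CPM. These values do not check the labels, and the groups are named by the labels. Leaf mesophyll markers were abundant in all libraries. Their summed levels were 23098 to 26585 TPM in libraries labelled ucp1 ucp3 and 22927 to 24635 TPM in wild-type. Root and guard cell markers were present in all libraries too, except the root marker CASP5, which had 0 reads in ucp1 ucp3 replicates 1 and 3. In such bulk tissue, fewer cells of a type and less RNA per cell cannot be told apart.

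TGG1 and TGG2 lie close together on chromosome 5, tail to tail, and their upstream sequences are shown because these genes had the same direction of change in every comparison below. In the RefSeq annotation of TAIR10.1, TGG1 spans chr5:9079452-9082384 on the minus strand and TGG2 chr5:9072708-9075777 on the plus strand. The 250 bases before each annotated start are given 5′ to 3′ on the strand of the gene, from chr5:9082385-9082634 for TGG1 and chr5:9072458-9072707 for TGG2. Capitals mark the runs of at least 12 bases that both windows hold on the same strand.
TGG1: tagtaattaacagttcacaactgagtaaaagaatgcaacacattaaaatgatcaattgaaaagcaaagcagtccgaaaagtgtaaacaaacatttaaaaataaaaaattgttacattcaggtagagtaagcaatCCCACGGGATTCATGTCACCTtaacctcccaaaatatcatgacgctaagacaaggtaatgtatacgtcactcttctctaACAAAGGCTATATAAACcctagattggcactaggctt
TGG2: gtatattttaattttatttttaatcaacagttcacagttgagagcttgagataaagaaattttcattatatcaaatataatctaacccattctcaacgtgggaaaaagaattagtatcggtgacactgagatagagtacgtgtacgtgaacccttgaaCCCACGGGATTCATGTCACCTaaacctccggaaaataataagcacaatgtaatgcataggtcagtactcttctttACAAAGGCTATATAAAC
The first run has 21 bases and starts 116 bases before the annotated start of TGG1 and 92 bases before that of TGG2. The second has 17 bases, contains TATAAA, and starts 37 bases before TGG1 and 17 bases before TGG2. Among 27443 upstream windows of the same length from protein-coding genes, neither run occurred in any window other than these. Between the other pairs of the 8 loci the longest run in common had 7 to 13 bases.

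NAI2 (chr3:5397541-5402653, minus strand) is also shown, because its window was the only one of the 8 with CACGTG. This is the core of the G-box that basic helix-loop-helix factors bind in plants. The levels of NAI2 overlapped between the genotypes, as did those of NSP1, whose window held neither CACGTG nor AACGTG. The window of BGLU18 also held neither, and a link between these motifs and the fold changes was not tested. The 250 upstream bases of NAI2 are chr3:5402654-5402903, and capitals mark CACGTG and AACGTG on either strand.
NAI2: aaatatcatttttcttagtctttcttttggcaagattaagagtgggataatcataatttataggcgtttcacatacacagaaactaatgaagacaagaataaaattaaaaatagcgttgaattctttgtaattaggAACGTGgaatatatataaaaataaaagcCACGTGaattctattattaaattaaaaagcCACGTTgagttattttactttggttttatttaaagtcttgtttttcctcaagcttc
CACGTG began 86 bases before the annotated start of NAI2, and AACGTG began 114 bases before it and, on the other strand, 56 bases before it. The only other match of these motifs was AACGTG in TGG2, 156 bases before its start. Searched on both strands, CACGTG occurred in 6.49% of the 27443 windows, AACGTG in 7.54% and TATAAA in 47.3%. These matches describe the letters of the windows and were not tested as binding sites.

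TGG1, the more abundant of the classical leaf myrosinases, had 1291, 1225 and 1842 CPM in libraries labelled ucp1 ucp3, against 827, 762 and 834 CPM in wild-type, where CPM are normalised read counts relative to the TMM-scaled library size. The lowest labelled mutant lay above the highest wild-type library, and ucp1 ucp3 replicate 3 was the highest of all. Mean levels were 1453 ± 338 CPM in the labelled mutants and 808 ± 39.6 CPM in wild-type (SD, n = 3 each), and the fitted log2 fold change was 0.84 ± 0.15 (SE), or 1.79-fold. Without ucp1 ucp3 replicate 3 it was 0.65.

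TGG2, the close relative whose loss together with TGG1 abolishes most leaf myrosinase activity, had 419.7, 352 and 599 CPM in libraries labelled ucp1 ucp3 and 181, 174 and 176 CPM in wild-type. The wild-type libraries were nearly alike, and every labelled mutant stood above them. The log2 fold change was 1.35 ± 0.17 (SE), or 2.55-fold, and 1.13 without ucp1 ucp3 replicate 3. The mRNAs of TGG1 and TGG2 are 82.8% identical over aligned bases, but only 1.85% of the 31-mers of TGG1 and 1.95% of those of TGG2 occur in another gene's transcripts, so few reads can be assigned to either.

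The balance between the myrosinase genes restates the same values and is given as a description. The TPM ratio of TGG1 to TGG2 was 3.12, 3.53 and 3.12 in libraries labelled ucp1 ucp3, against 4.63, 4.45 and 4.80 in wild-type. The ranges did not overlap, with means of 3.26 ± 0.237 in the labelled mutants and 4.62 ± 0.172 in wild-type (SD, n = 3 each). How often the ratios of other gene pairs have separate ranges was not counted. TPM is the authors' relative abundance per transcript length and was used wherever levels of different genes were compared.

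BGLU18, which also releases abscisic acid from its glucose ester and is induced by wounding, had the largest fold change of the 8 loci. Its levels were 64.0, 91.4 and 136 CPM in libraries labelled ucp1 ucp3 and 18.6, 29.6 and 24.9 CPM in wild-type, from 91 to 1040 reads per library. No labelled mutant came near the wild-type range, although the labelled mutants themselves differed more than 2-fold. The log2 fold change was 1.93 ± 0.29 (SE), or 3.82-fold, and 1.71 without ucp1 ucp3 replicate 3. None of the 31-mers of BGLU18 occurs in transcripts of another gene.

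NAI2, a component of ER bodies needed to form them, had 232, 238 and 181 CPM in libraries labelled ucp1 ucp3, against 211, 291 and 182 CPM in wild-type. The groups overlapped, although wild-type replicate 2 lay above every labelled mutant. The log2 fold change was -0.05 ± 0.16 (SE). It turned positive, at 0.05, without ucp1 ucp3 replicate 3, and at 0.15 without wild-type replicate 2. The TPM ratio of BGLU18 to NAI2 was 0.377, 0.529 and 1.03 in the labelled mutants and 0.121, 0.141 and 0.188 in wild-type. The beta-glucosidase gene was thus higher relative to the structural gene in each labelled mutant. This ratio restates the values of both genes and is given as a description. The part of leaf and root tissue in either level was not tested.

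ESM1, a GDSL lipase-like protein gene whose activity favours isothiocyanates over nitriles, had 319, 524 and 329 CPM in libraries labelled ucp1 ucp3, against 678, 592 and 1075 CPM in wild-type. The groups did not overlap, but wild-type replicate 3 was far above the other wild-type libraries and ucp1 ucp3 replicate 2 was close below them. The log2 fold change was -0.99 ± 0.28 (SE), which was not among the calls of the test. Without ucp1 ucp3 replicate 3 it was -0.88, and among the fits of whole loci it was called only without ucp1 ucp3 replicate 2, at -1.28. In the fit of transcript models, DESeq2 called the model of ESM1, as given below.

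MVP1, a myrosinase-associated protein of the GDSL lipase-like family that takes part in endomembrane trafficking, had 48.2, 55.3 and 43.3 CPM in libraries labelled ucp1 ucp3 and 57.7, 55.4 and 60.4 CPM in wild-type. The highest labelled mutant and the lowest wild-type library were almost equal, although the ranges did not overlap. The log2 fold change was -0.20 ± 0.12 (SE), not called, and -0.15 without ucp1 ucp3 replicate 3.

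NSP1, a nitrile-specifier protein gene, had 302, 274 and 268 CPM in libraries labelled ucp1 ucp3, against 266, 337 and 212 CPM in wild-type. The labelled mutants all lay inside the wild-type range, with a log2 fold change of 0.05 ± 0.15 (SE). Its sign changed to -0.01 with library totals in place of TMM scaling, and its counts are uncertain because 36.9% of its 31-mers occur in other genes, chiefly NSP4 and NSP3, with which its mRNA is 91.6% and 89.7% identical over aligned bases.

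ESP, the epithiospecifier protein gene, is known for its low expression in the Columbia accession, and its counts were too low for the test. It had 10, 29 and 3 reads in libraries labelled ucp1 ucp3 and 5, 4 and 2 reads in wild-type. As normalised counts these were 2.28, 2.55 and 2.71 CPM in the labelled mutants, against 1.02, 1.11 and 0.465 CPM in wild-type, with no overlap. Wild-type replicate 3 was below its detection floor of 0.708 CPM, and ucp1 ucp3 replicate 3 was at the floor of 3 reads. Pooled over libraries, 42 reads in the labelled mutants and 11 in wild-type gave a CPM ratio of 2.90 (95% interval 1.47 to 6.24, exact binomial, counting error only).

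**Figure D1:**
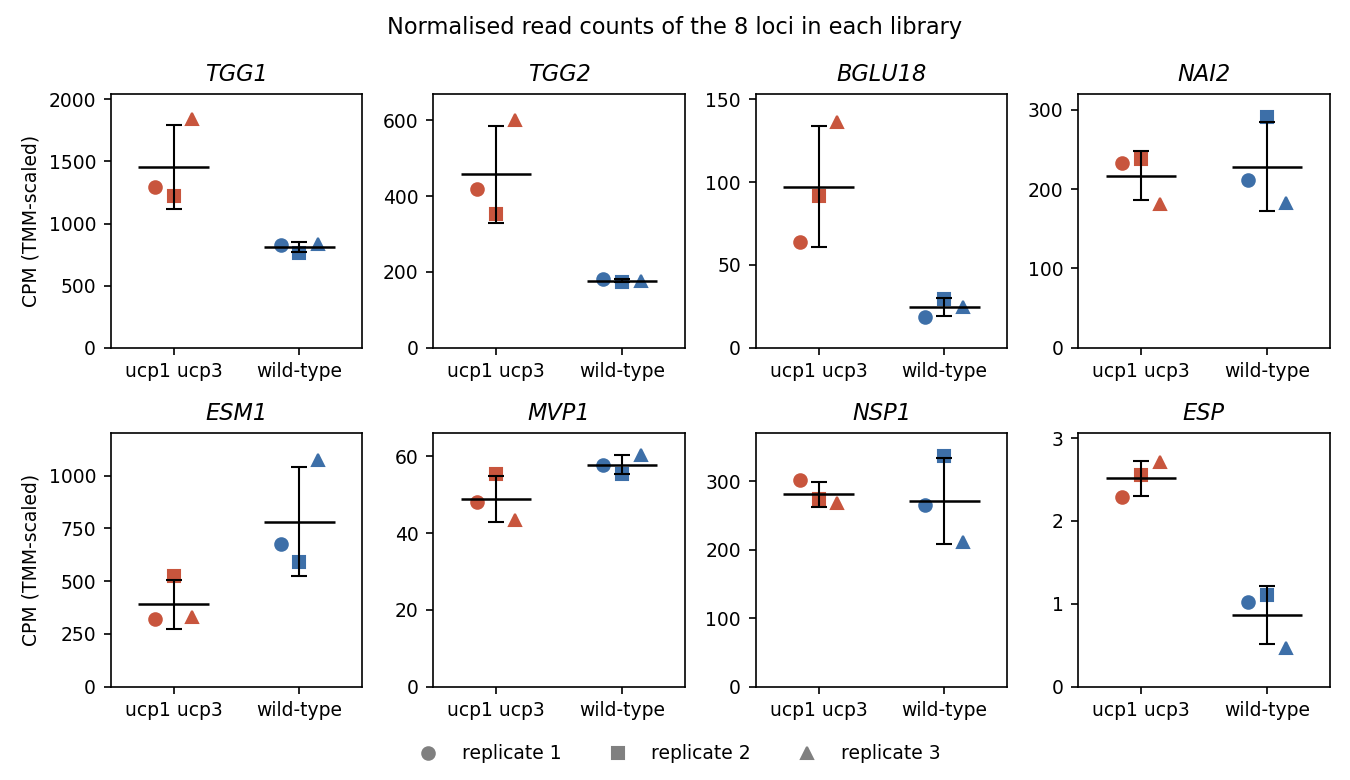
Normalised counts of the 8 loci (vertical axes, TMM-scaled CPM from 0) in the 3 libraries labelled ucp1 ucp3 (left, red) and the 3 wild-type libraries (right, blue); symbols mark replicates, lines the mean and bars the SD. All labelled mutants lie above wild-type for TGG1, TGG2, BGLU18 and ESP, all lie below for ESM1 and, by a small margin, MVP1, and the groups overlap for NAI2 and NSP1.

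Of the 7 loci that passed the filter on low counts, TGG1, TGG2 and BGLU18 were among the calls of the edgeR quasi-likelihood test (Benjamini-Hochberg adjusted p under 0.05 over 17415 tested loci), all higher in libraries labelled ucp1 ucp3, and 0 were called lower. Over all tested loci 1.26% were called, 0.781% higher and 0.482% lower. The CPM ranges of the groups were separate for 5 of the 7 loci, 3 higher and 2 lower, where 23.6% of all tested loci had separate ranges, 11.2% higher and 12.4% lower. Because the loci were chosen with this contrast known, nothing is read from these counts. BGLU18 ranked 17 of 17415 loci by log2 fold change from the top, TGG2 ranked 56 and TGG1 255, while ESM1 ranked 116 from the bottom. The median log2 fold change of the 7 loci was 0.05 and that of all tested loci was -0.002.

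TGG2 was called under all 14 alternatives of test, scaling, filter, depth and left-out library. TGG1 lost its call without wild-type replicate 1, at a log2 fold change of 0.87. BGLU18 lost its call without ucp1 ucp3 replicate 2, wild-type replicate 1 or wild-type replicate 3, at 1.94, 1.78 and 1.95, values close to the one from all libraries. Without ucp1 ucp3 replicate 3 all 3 loci were called. The refits reuse the same libraries and loci chosen with this contrast known. They describe how far the calls depend on the settings and add no separate evidence.

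**Figure D2:**
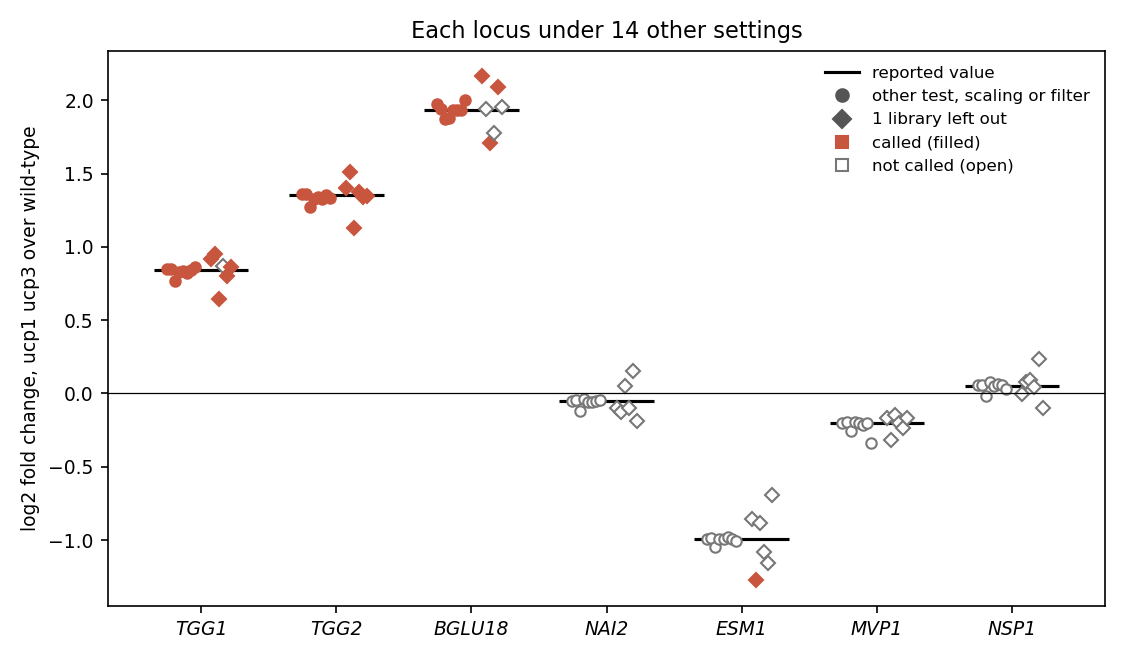
Log2 fold change of the 7 tested loci, labelled ucp1 ucp3 over wild-type (vertical axis), in the fit of all libraries (black lines) and under 14 other settings; circles are other tests, scalings or filters, diamonds have 1 library left out, and filled symbols were called. TGG1, TGG2 and BGLU18 stay above 0 and ESM1 and MVP1 below 0 throughout, while NAI2 and NSP1 fall on both sides of 0.

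Per transcript length, the order of the 8 loci differed between the genotypes at the top. In libraries labelled ucp1 ucp3 TGG1 came first at 887 ± 193 TPM, followed by ESM1 at 305 ± 105 TPM and TGG2 at 275 ± 71.3 TPM. ESM1 and TGG2 overlapped there, and all TGG1 libraries lay above both. In wild-type ESM1 had 645 ± 202 TPM and TGG1 527 ± 17.5 TPM, which also overlapped, whereas TGG2 had 114 ± 2.43 TPM and came after NSP1 (SD, n = 3 each).

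The TPM ratio of ESM1 to TGG1 was 0.312, 0.541 and 0.226 in libraries labelled ucp1 ucp3, against 1.04, 0.987 and 1.64 in wild-type. The modifier transcript was below the main myrosinase transcript in each labelled mutant. In wild-type it was above it in replicates 1 and 3 and just below it in replicate 2. This ratio, too, restates the values of loci chosen with this contrast known and is given as a description. NSP1 held 176 ± 8.97 TPM in the labelled mutants and 182 ± 45.0 TPM in wild-type. NAI2 held 92.5 ± 15.2 TPM in the labelled mutants and 103 ± 27.2 TPM in wild-type, where its range overlapped that of TGG2.

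MVP1 and BGLU18 changed places. BGLU18 had 56.8 ± 21.2 TPM and MVP1 39.5 ± 6.49 TPM in the labelled mutants, with overlapping ranges, against 15.2 ± 3.64 TPM and 49.7 ± 1.28 TPM in wild-type, without overlap. ESP was last in every library, at 2.28 ± 0.246 TPM in the labelled mutants and 0.842 ± 0.35 TPM in wild-type. The TPM ratio of NSP1 to ESP was 91.6, 74.2 and 68.8 in the labelled mutants and 179.5, 209 and 316 in wild-type. These ratios are uncertain, because ESP had only 5, 4 and 2 reads in wild-type and 3 in ucp1 ucp3 replicate 3. Summed over the 8 loci, the level was 1599.9, 1830.0 and 2074 TPM in the labelled mutants, against 1549, 1553 and 1811 TPM in wild-type, which overlapped.

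**Figure D3:**
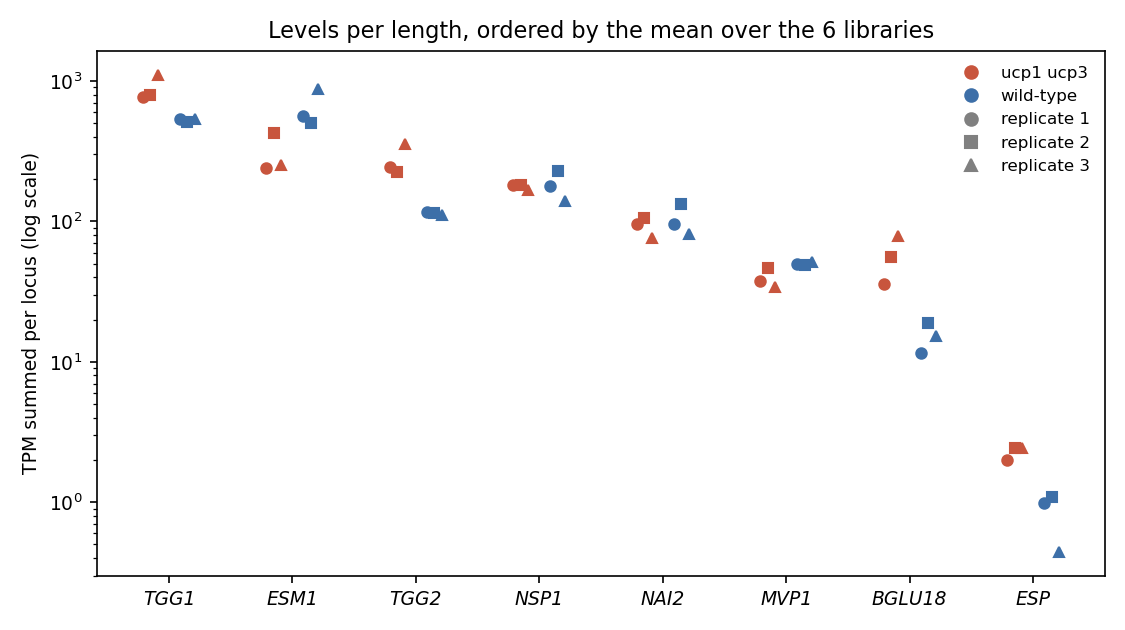
Deposited TPM summed per locus (vertical axis, log scale) in each library labelled ucp1 ucp3 (red, left of each pair) and wild-type (blue, right), with loci ordered by their mean over the 6 libraries and symbols marking replicates. TGG1 is above ESM1 in every labelled mutant but not in every wild-type library, BGLU18 lies above or near MVP1 in the labelled mutants and below it in wild-type, and ESP is lowest throughout.

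The same transcript model carried nearly all reads of a locus in both genotypes. Model 1 held at least 99.7% of the TGG1 counts and between 94.4% and 100% of the BGLU18 counts, and model 2 of TGG2 held all of them. NAI2 and ESP had reads in only 1 of their models, and ESM1 and MVP1 have only 1 model in the tables. NSP1 was the exception, with 86.6% to 93.4% of its counts in model 2 and 6.64% to 13.4% in model 1. The log2 fold change of the lead model was 0.84 for TGG1, 1.35 for TGG2, 1.95 for BGLU18 and -0.99 for ESM1. These lie near the values of the whole loci because the lead model held nearly all or all of the counts. Of the 16 models, 8 passed the filter and 0 were called by edgeR, where 0 of 20008 models (0%) were called over the whole table and 2211 had an unadjusted p under 0.05, among them 4 of the 8. DESeq2 called 607 of the 20008 models (3.03%), among them the lead models of TGG1, TGG2, BGLU18 and ESM1.

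Of 51 other genes of these systems, grouped by role, 35 passed the filter and 0 were called by edgeR, where 1.26% of all tested loci were called (8 had an unadjusted p under 0.05, 6 higher and 2 lower, where 16.4% of all tested loci did), and DESeq2 called 2, TSA1 and MYC2, where it called 2.2% of all tested loci. The median log2 fold change of the 35 genes was 0.07. Among the other classical myrosinases, TGG3 and TGG6 had 0 reads in every library. TGG5, like TGG4 a myrosinase gene of roots, had 0.903 to 7.31 CPM in libraries labelled ucp1 ucp3 and 2.09 to 7.20 CPM in wild-type, and TGG4 had 2.71 to 6.17 CPM in the labelled mutants and 0.465 to 3.05 CPM in wild-type. These transcripts share 47.4% of the 31-mers of TGG4, so their counts are uncertain.

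Of 15 other beta-glucosidases of the myrosinase and ER-body clades 6 were tested and 0 called. PYK10, the main beta-glucosidase of root ER bodies, had 1793, 1947 and 1444 CPM in libraries labelled ucp1 ucp3, against 1806, 2391 and 1671 CPM in wild-type, with a log2 fold change of -0.18 ± 0.16 (SE). PEN2, an atypical myrosinase of indole glucosinolates in pathogen defence, had a log2 fold change of -0.17 ± 0.12 (adjusted p = 0.532 by edgeR), and BGLU21, a root relative of PYK10, one of 0.50 ± 0.32 (adjusted p = 0.513 by edgeR). BGLU33, named after its values were seen, had one of 0.39 ± 0.18 (SE, adjusted p = 0.285 by edgeR) and was higher in every labelled mutant. Since 0.781% of all tested loci were called higher, 0 calls among 6 genes do not set them apart from BGLU18. The difference between these genes and BGLU18 was not tested.

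Of 10 other ER-body genes 9 were tested and 0 called. The lectin genes PBP1, JAL34 and JAL33, which had the highest levels of this list and encode proteins that bind PYK10 or its complexes, had log2 fold changes of -0.17 ± 0.12, 0.01 ± 0.19 and 0.30 ± 0.14 (SE). TSA1, a homologue of NAI2 that lies next to BGLU18 on the same strand, was named after its values were seen. It had 17.4, 33.9 and 36.1 CPM in libraries labelled ucp1 ucp3 and 12.5, 15.5 and 18.4 CPM in wild-type, so that replicate 1 of the labelled mutants fell inside the wild-type range. Its log2 fold change was 0.88 ± 0.26 (SE, adjusted p = 0.128 by edgeR), against -0.05 for NAI2, with which its mRNA is 74.1% identical over aligned bases.

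Of 4 other specifier proteins 3 were tested and 0 called, with log2 fold changes of 0.07 for NSP3, 0.36 for NSP4 and 0.32 ± 0.16 (SE, adjusted p = 0.354 by edgeR) for NSP5, which makes simple nitriles as NSP1 does. Of 4 nitrilases, which hydrolyse nitriles, all were tested and 0 called. NIT1 had 407, 461 and 394 CPM in libraries labelled ucp1 ucp3, against 505, 496 and 772 CPM in wild-type, where replicate 3 stood highest, as it did for ESM1. Its log2 fold change was -0.49 ± 0.16 (SE, adjusted p = 0.150 by edgeR), that of NIT2 was 0.58 ± 0.23 (adjusted p = 0.238 by edgeR) and that of NIT3 was 0.22.

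Among 7 genes for myrosinase-binding and GDSL lipase-like proteins 4 were tested and 0 called. GLL22 had a log2 fold change of 0.03, AT3G14220 of -0.11 and GLL23, a neighbour of MVP1, of -0.48 ± 0.15 (SE, adjusted p = 0.118 by edgeR). MBP2, a myrosinase-binding protein gene named after its values were seen, had 2.74, 3.25 and 10.8 CPM in libraries labelled ucp1 ucp3 and 1.02, 0.554 and 1.16 CPM in wild-type, a log2 fold change of 2.05 ± 0.55 (SE, adjusted p = 0.0811 by edgeR) from 2 to 37 reads per library.

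Of 7 regulators and myrosin cell genes, all were tested and 0 called. MYC2, a master regulator of jasmonate responses, had 40.7, 53.1 and 91.2 CPM in libraries labelled ucp1 ucp3, against 23.3, 31.03 and 19.3 CPM in wild-type, with a log2 fold change of 1.22 ± 0.30 (SE, adjusted p = 0.0981 by edgeR). Since another gene on the opposite strand holds 98.5% of its 31-mers and the strand setting is not given in the sources used here, its reads cannot be told apart from those of that gene. MYC3 had a log2 fold change of 0.14 ± 0.13 and SYP22, a vacuolar syntaxin needed for normal myrosin cell patterning, of -0.001 ± 0.13 (SE). FAMA, the transcription factor that specifies both guard cells and myrosin cells, had one of 0.00 ± 0.30 (SE) and overlapping levels, from 13 to 99 reads per library.

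**Figure D4:**
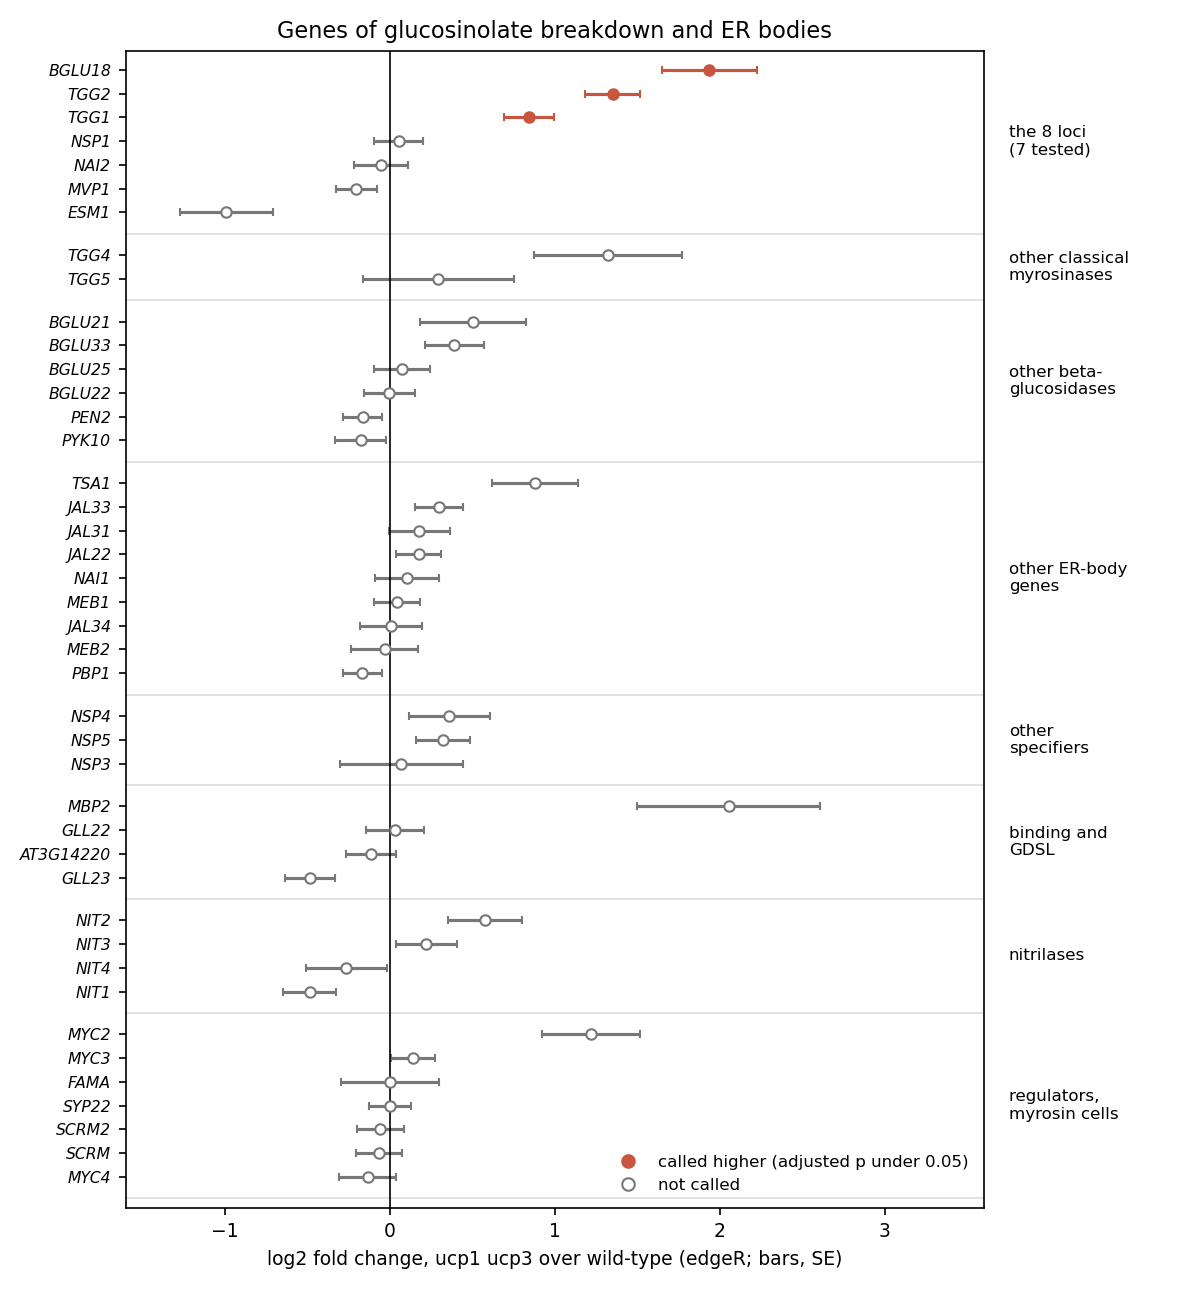
Log2 fold change with its SE (horizontal axis, labelled ucp1 ucp3 over wild-type, edgeR) of the 7 tested loci at the top and of the 35 other tested genes of glucosinolate breakdown and ER bodies below, by list. The filled points of BGLU18, TGG2 and TGG1 are the only calls, and MBP2, TGG4, MYC2 and TSA1 have open points to the right.

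Markers of the cells that hold these proteins were set beside the members. The 7 guard cell markers, all with reads in every library, summed to 340.1, 325 and 400.5 TPM in libraries labelled ucp1 ucp3 and 299, 309.7 and 296 TPM in wild-type, without overlap. Of the 6 that were tested 0 were called and 4 had a log2 fold change above 0, while KAT1 and MYB60 had -0.21 and -0.13. GC1, a gene with a guard-cell-specific promoter that made up most of the sum, had one of 0.48 ± 0.13 (SE, adjusted p = 0.0828 by edgeR). GC1 alone had 238, 224 and 281 TPM in libraries labelled ucp1 ucp3, against 189, 205 and 178 TPM in wild-type. The separate sums are therefore not read as a shift of the whole list. Phloem markers summed to 223 to 229.99 TPM in the labelled mutants and 199 to 268 TPM in wild-type, stomatal lineage markers to 11.9 to 17.3 TPM in the labelled mutants and 14.9 to 19.8 TPM in wild-type, and root markers to 98.6 to 159 TPM in the labelled mutants and 64.0 to 125 TPM in wild-type. All 6 tested root markers had a log2 fold change above 0, with a median of 0.34, and 0 were called. The untested root marker CASP5 went the other way, from at most 4 reads per library. It had 0, 0.176 and 0 CPM in the labelled mutants, against 0.819, 1.11 and 0.465 CPM in wild-type. RHD6, also untested, overlapped between the genotypes. The part of these cells in the levels of TGG1, TGG2 and BGLU18 was not tested.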

How the data were processed

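Polyadenylated RNA of 6 samples was sequenced from stranded libraries, per the labels' protocols. Estimated counts and TPM per transcript model were deposited, and the authors made them with kallisto, per the submitters' processing notes, which also name DESeq2 and TAIR10 without versions. The index and strand setting are not given in the sources used here.

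The deposited estimated counts were summed per locus and rounded, and the deposited TPM values were summed per locus. All loci were fitted with edgeR 4.0.16 in R 4.3.3 (default expression filter, TMM, robust quasi-likelihood F test, genotype as the only term), with Benjamini-Hochberg adjustment over 17415 loci and calls at an adjusted p under 0.05. SE is the log2 fold change over the square root of F. The procedure was tested on simulated counts. Replicate pairs differed by more than sampling noise, with chi-square over degrees of freedom of 2.48 to 7.01. Names, positions and upstream windows came from RefSeq TAIR10.1, which matched 26719 of 27416 loci, with Python 3.11.15, pandas 2.3.3 and Biopython 1.88. A 31-mer is a stretch of 31 bases of an annotated mRNA.

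The 8 loci and all gene lists were chosen with earlier results of these data known. Besides the 8 loci, the text names UCP1, UCP3, the 3 genes of each pathway list with the highest mean TPM and, for each locus, the 3 genes most like it among 12466 candidates with a mean of at least 10 CPM; genes outside this rule are marked or follow from position, from a marker list or from a call. The alternatives were DESeq2 1.42.0, limma-voom (limma 3.58.1) on unrounded estimates, a replicate block, RLE factors, library totals, no filter, a stricter filter (1 CPM in 3 libraries and a mean of 10 reads), thinning to 1183600 reads and each library left out.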

Additional observations from a re-analysis of the deposited data

How the results depend on the processing

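Of 98 values of the 7 tested loci under the 14 alternatives, 88 kept their direction and their side of the threshold, 4 lost a call, 1 gained a call and 5 changed sign. The sign changes were those of NAI2 when ucp1 ucp3 replicate 3 (0.05) or wild-type replicate 2 (0.15) was left out, and of NSP1 with library totals (-0.014) or when ucp1 ucp3 replicate 1 (-0.0007) or wild-type replicate 3 (-0.097) was left out. Over all left-out libraries NAI2 ranged between -0.19 and 0.15 and NSP1 between -0.097 and 0.24. Leaving out 1 library gave 1 to 3 called members, with 1, TGG2, without wild-type replicate 1, and 2, TGG1 and TGG2, without wild-type replicate 3.

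The 136 loci called higher became 234 with DESeq2, 267 without a filter and 31 to 326 with 1 library left out. The 84 called lower became 150 with DESeq2, 223 without a filter and 16 to 347 with 1 library left out, the extremes of both counts coming without ucp1 ucp3 replicate 2 at the top and, at the bottom, without wild-type replicate 1 for the higher and without ucp1 ucp3 replicate 1 for the lower calls. Without ucp1 ucp3 replicate 3 the counts were 54 and 19. The 0 calls among pathway genes became 2 with DESeq2 (TSA1, MYC2), 2 without a filter (MBP2, AT1G54020), 2 after thinning (TSA1, MYC2) and 0 to 2 with 1 library left out. The 0 called models of the members became 4 with DESeq2 and 1, that of BGLU18, after thinning. The cause of these shifts was not tested. Library totals moved the median of all loci to -0.06. The order of levels kept all 8 places per mRNA length and 6 to 8 with 1 library left out.

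Samples with the same replicate number did not deviate together (correlations of -0.08, -0.11 and -0.02), so the numbers are not read as a pairing. With the replicate block 122 loci were called higher, 45 lower, 3 members and 2 pathway genes (TSA1, MBP2), and 0 models. ESP had 3 reads in ucp1 ucp3 replicate 3, the shallowest library, and was not tested.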

Other observations

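The neighbours of the 8 loci on the chromosome give a local view of the same contrast. Next to TGG1, AT5G26010 had 9.82, 11.7 and 8.12 CPM in libraries labelled ucp1 ucp3 and 10.8, 11.9 and 11.2 CPM in wild-type, with a log2 fold change of -0.09 ± 0.20 (SE, adjusted p = 0.954 by edgeR). Between TGG1 and TGG2, AT5G25990 had at most 2.71 CPM in any library and was not tested. Before BGLU18, AT1G52380 had a log2 fold change of -0.03 ± 0.16 (adjusted p = 0.972 by edgeR), against 0.88 ± 0.26 for TSA1 on its other side (adjusted p = 0.128 by edgeR). Near NAI2, AT3G15970 had 0.40 ± 0.16 (adjusted p = 0.223 by edgeR) and AT3G15940 0.17 ± 0.15, and near MVP1, GLL23 had -0.48 ± 0.15 (adjusted p = 0.118 by edgeR). The neighbours of ESM1 that were tested, AT3G14205 and AT3G14220, had -0.07 ± 0.13 and -0.11 ± 0.15. No tested neighbour of the 8 loci outside them was called by edgeR. Beside MVP1, AT1G54020, named after its values were seen, had 2, 12 and 2 reads in the labelled mutants and 0 reads in each wild-type library. In wild-type, 3 reads would be 0.623 to 0.858 CPM. Replicates 1 and 3 of ucp1 ucp3 were below their own floors, at 0.457 CPM against 0.669 CPM and 1.81 CPM against 2.53 CPM. Only ucp1 ucp3 replicate 2, the deepest library, was above its floor.

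The genes whose log2(CPM + 1) was most like that of a locus over the 6 libraries were found for each locus among 12466 genes. These likenesses include the difference between the genotypes and the depth of the libraries, are the highest of many, and are given without a p-value. TGG1 was most like AT2G29970 (Pearson r = 0.996), P5CS1 (0.993), an enzyme of proline synthesis, and PSBW (0.992), a subunit of photosystem II. TGG2 was most like ERF2 (0.999), an ethylene response factor gene, AT3G19420 (0.996) and AT2G15960 (0.995), and BGLU18 most like FRO6 (0.988), a ferric reductase gene of shoots, UGE3 (0.987), a UDP-glucose epimerase gene, and AT1G35510 (0.986).

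ESM1 was most like SAR1B (0.999), a small GTPase gene of export from the endoplasmic reticulum, BIP2 (0.999), an ER chaperone gene, and PME44 (0.996), a pectin methylesterase gene. BIP2 had a log2 fold change of -0.57 (adjusted p = 0.0866 by edgeR) and SAR1B of -0.31 (adjusted p = 0.214 by edgeR). MVP1 was most like AT4G09200 and AT4G09310, whose values were the same in every library (both 0.997), and EMB2785 (0.997).

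NAI2 was most like BGLU22 (0.996), a root beta-glucosidase gene of the PYK10 clade, CYP705A15 (0.982) and GSO1 (0.977), a receptor kinase gene of the root endodermis. NSP1 was most like AT5G38200 (0.992), the lectin gene JAL31 (0.983) and PPCK1 (0.980), a kinase gene of phosphoenolpyruvate carboxylase. ESP, from few reads, was most like AT4G29030 (0.994), AT4G09830 (0.987) and BXL2 (0.987).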
